A study of Mus musculus with 30 samples.

Results

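The genes described here encode the proteins of the cytosolic ribosome. They were the protein-coding rows, in both deposited count tables, whose symbol starts with Rpl or Rps followed by a number, together with Rpsa, Rplp0, Rplp1 and Rplp2, leaving out the Rps6k kinases. The rule found 82 genes among 55471 rows, 50 of the large subunit and 32 of the small subunit, and it used names alone and no measured value. Their transcripts were counted in bone marrow cells of C57BL/6 mice given MTP10-HDL or, as controls, phosphate-buffered saline (PBS). In MTP10-HDL, muramyl tripeptide rides on a nanoparticle made of high-density lipoprotein. Muramyl peptides derive from bacterial cell walls and are sensed through Nod2, and the series asks how MTP10-HDL acts on blood progenitors. Hematopoietic stem cells (HSCs) gave 6 MTP10-HDL and 7 PBS libraries, and multipotent progenitors (MPPs) gave 3 MTP10-HDL and 2 PBS libraries. Each library pools sorted cells of 4 mice, so the spread between libraries is a spread between pools. The labels of the MPP MTP10-HDL samples give a schedule of 3 injections within 5 days, with the marrow taken a day after the last. The MTP10-HDL samples of the series' ATAC-seq part, HSCs included, are also labelled with 3 injections within 5 days. For the HSC RNA samples no schedule was found in the labels. No genotype other than the strain, and no age, is given in those sources.

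A ribosome joins a small subunit, which decodes the messenger RNA, to a large subunit, which links amino acids. Each core protein is needed in about the same number as the others, and cells make them together. Many of these transcripts begin with a run of pyrimidines called a 5′ terminal oligopyrimidine (TOP) tract, through which mTORC1 and the RNA-binding protein LARP1 control their translation. Stem cells of the marrow are known for low protein synthesis, which rises as they become progenitors, and in humans loss of 1 copy of a ribosomal protein gene causes Diamond-Blackfan anaemia.

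The start of these genes is shown because the pyrimidine run is the feature for which their transcripts are best known. RefSeq promoter windows (GRCm38.p6, 250 bases before to 50 after an annotated start) matched 62 of the 82 genes with 74 windows. A run of at least 7 C or T letters covering the annotated start was present in 25.7% of their windows, against 5.28% of all 32851 windows. In the following stretches of 35 bases, with 20 before the start and 15 from it, capitals mark such a run.
Rps6, chr4:86857353-86857387, minus strand: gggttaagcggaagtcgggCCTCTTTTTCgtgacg
Rps27, chr3:90213634-90213668, minus strand: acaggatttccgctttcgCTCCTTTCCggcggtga
Rplp2, chr7:141447631-141447665, plus strand: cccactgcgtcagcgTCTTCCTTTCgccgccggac
Rpl35, chr2:39005117-39005151, minus strand: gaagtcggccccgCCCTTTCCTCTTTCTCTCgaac
Rpl10l, chr12:66284387-66284421, minus strand: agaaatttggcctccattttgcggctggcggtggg
Rpl3l, chr17:24727806-24727840, plus strand: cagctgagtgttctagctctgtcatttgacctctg
Rps6 encodes the substrate of the S6 kinases and Rplp2 a stalk protein. Rpl10l and Rpl3l, the paralogs of Rpl10 and Rpl3, hold no such run at the annotated start and are described further with the MPP values. An annotated start can lie some bases from the start that cells use, so the share is of annotations, not of transcripts.

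Further letter patterns were searched on both strands of the same windows. AAGATGGC was in 9.46% of the ribosomal protein windows and 2.75% of all windows. GGGCGG was in 59.5% and 35.7%, and TATAAA in 8.11% and 13.6%. CCGGAAG, the core bound by ETS factors such as GABP, was in 36.5% of the ribosomal protein windows and 8.86% of all windows. Its reverse complement opens with pyrimidines, so it can overlap a pyrimidine run, and a match describes letters only. In the examples below CCGGAAG opens 4 bases after the annotated start for Rpl26 and 9 bases after it for Rps27l. The annotated start used for Rps27l lies within the gene, which begins at chr9:66944624. In the next stretches capitals mark CCGGAAG.
Rpl26, chr11:68901558-68901588, plus strand: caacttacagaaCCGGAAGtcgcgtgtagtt
Rps27l, chr9:66946083-66946110, plus strand: gccgcctctatcCCGGAAGttgctgagg
Fold changes did not separate the genes with a pyrimidine run from the rest by much. The median log2 fold change of MTP10-HDL over PBS was 0.18 for the 19 genes with a run that were tested in HSCs, against 0.13 for the 39 without. In MPPs it was 0.39 for 19 genes with a run and 0.38 for 42 without.

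HSC libraries held 4064155 to 7879858 counts and MPP libraries 11252479 to 32769369. All 13 listed stem and progenitor markers, such as Kit and Procr, were detected in both tables. HSC libraries were amplified from total RNA and MPP libraries were poly-A selected, so levels, given as counts scaled to an equal library total (CPM) with trimmed mean (TMM) factors, were compared within a cell type. HSC libraries also differed in quality. MTP10-HDL 2 and 3 and PBS 1 and 4 had the fewest detected genes, 24233 to 27528. MTP10-HDL 1 and 4 and PBS 2 and 3 had the most nuclear ribosomal RNA, 0.813% to 1.26% of counts. PBS 5 and PBS 7 were the shallowest, with 4215378 and 4064155 counts, and no MTP10-HDL library had fewer than 5467455.

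Ribosomal protein genes took a small share of HSC counts and a larger share of MPP counts. In HSCs they held 0.927% ± 0.214 of counts with MTP10-HDL (SD, n = 6) and 0.739% ± 0.181 with PBS (SD, n = 7), and the ranges of 0.612% to 1.27% and 0.536% to 1.06% overlap. In MPPs they held 6.58%, 11.3% and 6.48% in MTP10-HDL libraries 1, 2 and 3, against 4.81% and 7.73% in PBS libraries 2 and 3. MTP10-HDL 2 stood above the other MPP libraries, and PBS 3 lay above MTP10-HDL 1 and 3. The MPP means differed by 1.87 percentage points with all libraries, by 0.263 without MTP10-HDL 2, by 0.404 without PBS 2 and by 3.33 without PBS 3. The HSC means differed by 0.188 points, and by 0.119 without MTP10-HDL 6. Mitochondrial ribosomal RNA took 12.4% to 27.9% of HSC counts with MTP10-HDL and 20.4% to 27.6% with PBS. Immunoglobulin genes took 0.374% to 4.90% and 0.271% to 19.8%. Without mitochondrial and immunoglobulin genes the HSC shares were 1.23% ± 0.220 with MTP10-HDL (SD, n = 6) and 1.07% ± 0.265 with PBS (SD, n = 7). The MPP means without these genes were 8.72% and 7.07%. The kits differ between the cell types, so the gap between HSC and MPP shares cannot be told apart from the library method. Large subunit genes held 1.07 to 1.41 times the counts of small subunit genes over all 18 libraries. In HSCs Rpl4 and Rps3 alone held 30.6% to 42.5% of the ribosomal protein counts, against 7.35% to 8.13% in MPPs.

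**Figure D1:**
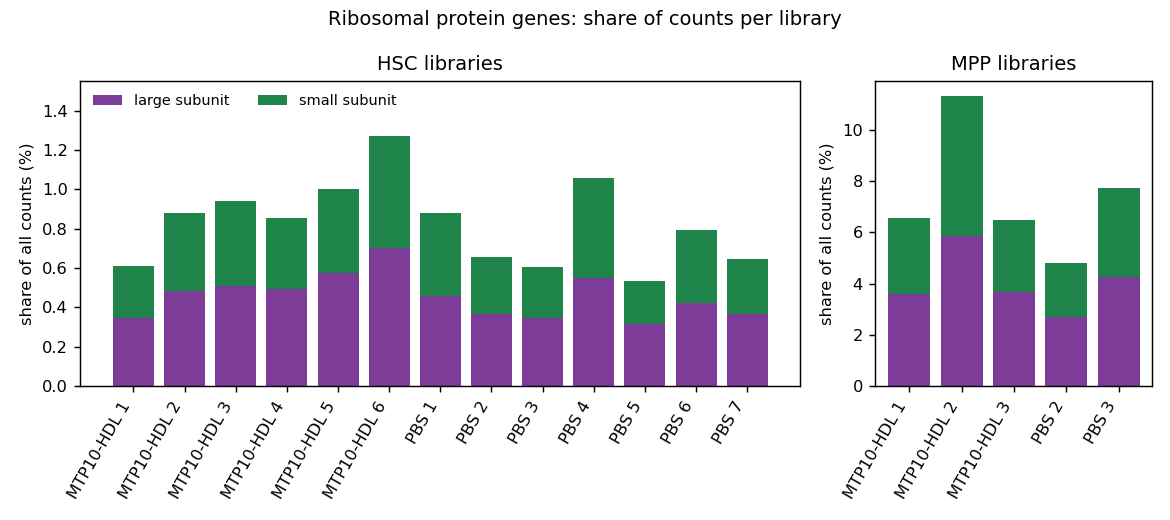
Share of all counts (%) held by large subunit (purple) and small subunit (green) ribosomal protein genes, 1 bar per library, MTP10-HDL left of PBS, with separate axes for HSC and MPP. HSC shares run between 0.536% and 1.27% with the treatments overlapping, and MPP MTP10-HDL 2 holds the highest share at 11.3%.

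Of the 82 genes, 77 passed the low-count filter in HSCs, and none of them passed an adjusted p of 0.05 in edgeR's quasi-likelihood test with Benjamini-Hochberg adjustment over 16631 genes. No gene of the whole table passed either, so 0% were called in each direction. The median log2 fold change of the 77 was 0.14, with 58 above 0 and 19 below, against a median of -0.02 over all genes tested, of which 47.7% were above 0. The median was 0.16 for the 45 large subunit genes tested and 0.13 for the 32 of the small subunit. It was above 0 with each other scaling of the libraries, 0.13 with relative log expression factors and 0.24 with library totals. Standard errors ran between 0.14 and 0.49, where the median was 0.14. Without a multiple-test correction, 2 of the 77 genes, Rpl5 and Rpl4, were higher at p below 0.05 and 0 were lower, where 4.36% and 4.47% of all genes were. DESeq2 and limma voom called 0 of them, where DESeq2 called 0.16% of genes higher and 0.407% lower. Without the low-count filter edgeR also called 0, where 0.0146% of genes were called higher and 0.0774% lower.

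The HSC median differed between sets of libraries. It was -0.17 within the 4 libraries with few detected genes, 0.03 within the 4 with most ribosomal RNA, and 0.54 among the remaining MTP10-HDL 5 and 6 and PBS 5, 6 and 7, which include the shallowest PBS pair. In the first set 0 genes were higher and 3 lower at unadjusted p below 0.05, where 1.58% and 1.96% of all genes were. In the second 1 was higher and 0 lower, where 2.06% and 3.56% were. In the last set 71 of 77 genes were above 0, and 24 were higher and 0 lower at that p, where 5.35% and 6.31% were. In none of the 3 sets did a ribosomal protein gene pass the adjustment. Without PBS 5 the median over all other libraries was 0.07, without PBS 6 it was 0.09, and without PBS 1 it was 0.24. Without both PBS 5 and PBS 7 it was 0.01, with 40 of the genes tested above 0.

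**Figure D2:**
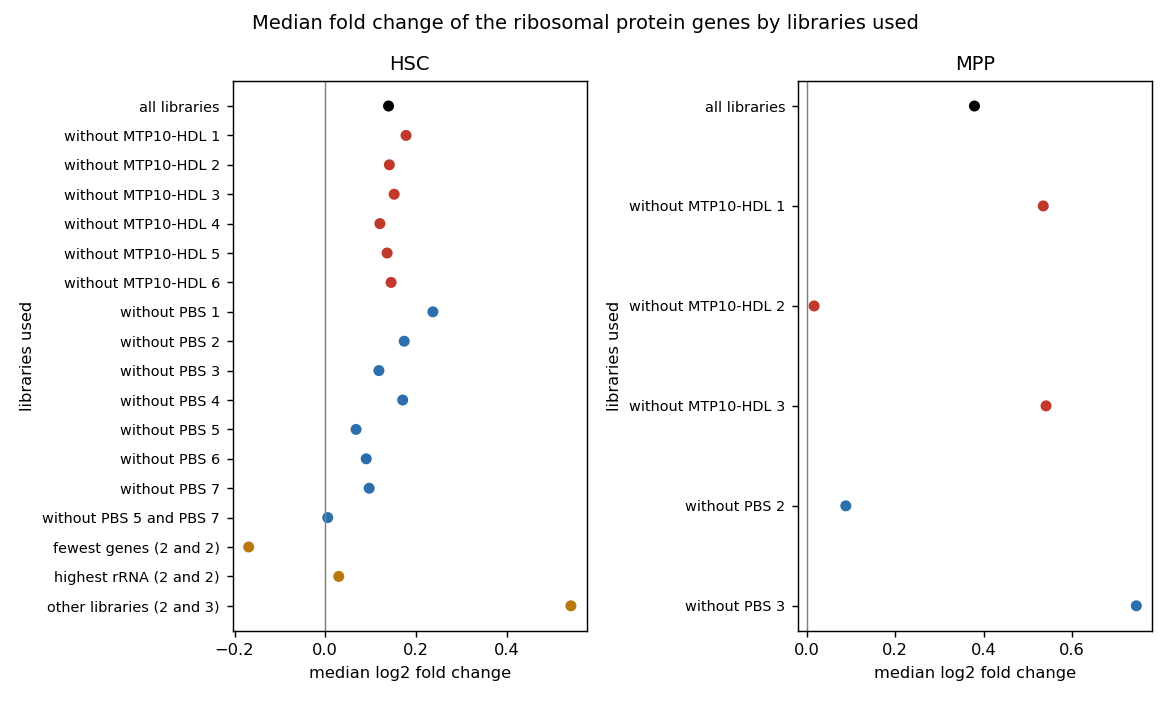
Median log2 fold change of the tested ribosomal protein genes by the libraries used, HSC left and MPP right. Black is all libraries, red leaves out an MTP10-HDL library, blue leaves out PBS libraries, and brown stays within 1 of the 3 sets of HSC libraries, with the numbers of MTP10-HDL and PBS libraries in brackets. The HSC medians lie between -0.17 and 0.54 and the MPP medians between 0.02 and 0.75.

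Markers of other cells differed in value between the HSC groups. All 13 tested B cell markers, of 14 listed, were lower, with summed levels of 126 to 263 CPM with MTP10-HDL and 148 to 576 CPM with PBS. All 13 tested erythroblast markers, of 15 listed, were lower, with 140.0 to 272 CPM against 213 to 726 CPM. All 14 neutrophil markers had fold changes above 0, at 701 to 6259.5 CPM against 124 to 4255 CPM. None of these markers passed the adjusted threshold, and no listed marker of these cells was at 0 in all HSC libraries. Their part in the ribosomal protein values was not tested. In bulk samples, fewer cells of a type and less RNA per cell cannot be told apart.

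The lead genes in HSCs were Rpl5 and Rpl4. Rpl5 binds 5S ribosomal RNA together with Rpl11, and the free particle restrains Mdm2, the ubiquitin ligase of p53. Rpl5 (chr5:107900508-107909005) had 14.3, 18.4 and 21.6 CPM with MTP10-HDL, against 8.91, 11.6 and 19.00 CPM with PBS, as lowest, median and highest of each group, and the groups overlap. Its log2 fold change was 0.53 ± 0.21 (SE, as after every log2 fold change), with an edgeR adjusted p of 0.516. Its partner Rpl11 had 12.5, 15.8 and 20.1 CPM with MTP10-HDL, against 8.41, 14.3 and 20.3 CPM with PBS, and a log2 fold change of 0.12 ± 0.21. The difference between Rpl5 and Rpl11 was not tested. Mdm2 itself had a log2 fold change of -0.15 ± 0.16 and Trp53, the gene of p53, of 0.27 ± 0.17. A list of 12 genes of the p53 axis held Mdm2 and Trp53 but neither Rpl5 nor Rpl11. Of these 12 genes, 10 were tested in HSCs, 3 were above 0 and none was called.

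Rpl4 (chr9:64173387-64178562), whose long loop lines the exit tunnel, had 1435, 2200.2 and 2453 CPM in MTP10-HDL HSC libraries and 1082, 1689 and 2186 CPM in PBS HSC libraries, again as lowest, median and highest. Its log2 fold change was 0.40 ± 0.18 (edgeR adjusted p = 0.546), and both of its lowest values, in PBS 5 and PBS 7, belong to the shallowest libraries. Rps3, a small subunit protein at the entry of the messenger RNA channel, ranged over 728 to 1903 CPM with MTP10-HDL and 473 to 2055 CPM with PBS, a spread wider than its log2 fold change of 0.26 ± 0.33.

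The stalk of the large subunit, built of Rplp0, Rplp1 and Rplp2, recruits the elongation factors. Rplp1 had 77.3, 98.1 and 111 CPM with MTP10-HDL, against 42.1, 71.9 and 114 CPM with PBS, with a log2 fold change of 0.34 ± 0.22. Rplp2 had 102, 138 and 163 CPM with MTP10-HDL, against 71.3, 106 and 176 CPM with PBS, and 0.23 ± 0.19 on the log2 scale. Rplp0 had 174, 244 and 280.1 CPM with MTP10-HDL, against 113, 223 and 279 CPM with PBS, and 0.18 ± 0.18 on the log2 scale. All 3 stalk genes had values above 0 and overlapping groups, and none passed the test.

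In the small subunit, the higher fold changes included those of Rpsa and Rps21. Rpsa, also known as the laminin receptor, had 17.2, 24.9 and 31.5 CPM with MTP10-HDL, against 14.97, 15.9 and 34.3 CPM with PBS, and a log2 fold change of 0.33 ± 0.23. Rps24 had 203, 240.0 and 316 CPM with MTP10-HDL, against 151, 210.0 and 253 CPM with PBS, with 0.26 ± 0.14 on the log2 scale and an unadjusted edgeR p of 0.0838, the lowest of the small subunit. Rps19, the gene most often lost in Diamond-Blackfan anaemia, had 43.1, 58.97 and 75.5 CPM with MTP10-HDL, against 19.2, 52.3 and 71.6 CPM with PBS, and 0.25 ± 0.24 on the log2 scale. Rps4x, a small subunit protein encoded on the X chromosome, had 95.1, 123 and 140.1 CPM with MTP10-HDL, against 69.1, 109 and 166 CPM with PBS, and 0.07 ± 0.17 in log2 fold change.

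The lowest HSC fold changes belonged to Rps27 and Rpl9. Rps27, a zinc-finger protein of the small subunit, had 1.78, 2.87 and 4.87 CPM with MTP10-HDL, against 0.660, 4.38 and 9.16 CPM with PBS, so its value rests on few counts. Its log2 fold change was -0.64 ± 0.49 (edgeR adjusted p = 0.707). Its paralog Rps27l, a p53 target, had 13.7, 18.3 and 22.5 CPM with MTP10-HDL, against 10.4, 13.8 and 36.7 CPM with PBS, and 0.03 ± 0.27 in log2 fold change. Rpl9 had 20.1, 38.6 and 58.9 CPM with MTP10-HDL, against 24.8, 57.8 and 84.9 CPM with PBS, with -0.54 ± 0.30 on the log2 scale. Rpl12, which anchors the base of the stalk, had -0.29 ± 0.25, Rpl27 -0.33 ± 0.34 and Rps6 -0.23 ± 0.34 in log2 fold change. None of these genes passed the test in either direction, and none of the 77 genes had MTP10-HDL libraries all above or all below the PBS libraries, as 0.174% and 0.168% of all genes had.

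The 5 genes that did not pass the filter in HSCs were Rpl10l, Rpl23a, Rpl24, Rpl39l and Rpl3l. Rpl10l had 0 counts in all 13 HSC libraries, where 3 counts in a library equal 0.381 to 0.738 CPM before TMM scaling. Rpl39l ranged over 0 to 0.489 CPM with MTP10-HDL and 0 to 2.76 CPM with PBS, and Rpl3l over 0 to 0.858 CPM with MTP10-HDL and 0 to 2.20 CPM with PBS. Rpl23a and Rpl24 are core proteins, and their rows held 0.797 to 3.08 CPM with MTP10-HDL and 0.662 to 1.93 CPM with PBS for Rpl23a and 0.266 to 1.72 CPM with MTP10-HDL and 0.441 to 4.02 CPM with PBS for Rpl24. Rpl23a and Rpl24 stayed low in MPPs too, at up to 4.44 and 2.21 CPM. How reads that also match copies elsewhere were counted is not given in the sources used here, so the counts of genes with near-identical copies are uncertain.

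Across HSC libraries the genes moved together in part. The median correlation between pairs of the 77 genes was 0.439 over 13 libraries, and 26 genes had a correlation above 0.8 with the mean of the others. These points share library, depth and amplification. Rpl30 followed the mean of the others most closely, at 0.956, while Rps12 had -0.22, Rpl11 -0.21, Rpl17 -0.17 and Rpl7a -0.07. PBS 1 held the highest level of 26 genes, or 33.8%, against 8.05% of all genes tested, and PBS 4 of 17, or 22.1%, against 12.4%. PBS 5 held the lowest level of 36 genes, or 46.8%, against 12.1% of all genes tested. The mean centred log2 level of the 77 genes ran between -0.20 and 0.17 with MTP10-HDL and between -0.55 and 0.42 with PBS. The PBS libraries spanned the MTP10-HDL libraries on both sides, with an SD of 0.354 (n = 7) against 0.139 (n = 6) with MTP10-HDL.

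**Figure D3:**
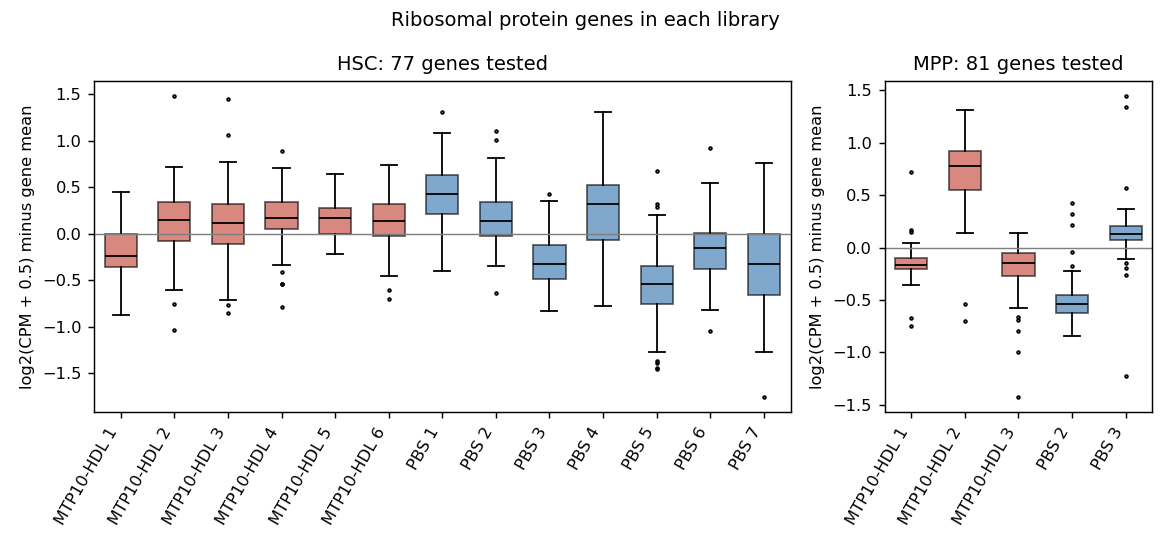
Level of each tested ribosomal protein gene in each library as log2(CPM + 0.5) minus the gene's mean over libraries, in red for MTP10-HDL and blue for PBS. Boxes show quartiles and median, whiskers reach 1.5 box lengths and dots lie beyond. By its median HSC PBS 5 lies lowest and PBS 1 highest, and MPP MTP10-HDL 2 lies above all other MPP libraries.

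In MPPs 81 of the 82 genes passed the filter and 77 of them had a fold change above 0, where 52% of 15449 genes had. Rpl39l, at 0 to 0.680 CPM, was the gene that did not pass. None was called by edgeR in either direction, as 0% of all genes were. The median log2 fold change of the 81 was 0.38, with 0.38 for 49 large subunit genes and 0.44 for 32 small subunit genes, against 0.02 over all genes. It was 0.36 with relative log expression factors and 0.35 with library totals. At unadjusted p below 0.05 there were 0 higher genes, where 2.17% of all genes were higher, and 2 lower genes, where 4.06% were. DESeq2 called those 2, Rpl10l and Rpl3l, lower, where it called 0.997% of genes lower, and limma voom called 0. Without the low-count filter edgeR called the same 2 lower, where 0.187% of genes were called higher and 1.13% lower. The 5 libraries leave few degrees of freedom, with standard errors of 0.23 to 1.13.

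The MPP value rested on 2 libraries. MTP10-HDL 2 held the highest level of 76 of the 81 genes, or 93.8%, where it was the highest for 31.5% of all genes tested. PBS 2 held the lowest level of 69 genes, or 85.2%, where it was the lowest for 22.1% of all genes. Without MTP10-HDL 2 the median log2 fold change was 0.02 with 44 genes above 0, and without PBS 2 it was 0.09. Without PBS 3 it was 0.75, without MTP10-HDL 1 it was 0.54 and without MTP10-HDL 3 it was 0.54. In MTP10-HDL 2 every tested gene but Rpl10l and Rpl3l lay above its own mean.

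Among the MPP genes highest by fold change, Rpl41, Rpl13a, Rps2 and Rpl15 were the 4 whose MTP10-HDL libraries all lay above both PBS libraries, where 12% of all genes did. Rpl41, which encodes the shortest of the ribosomal proteins, had 532, 1325 and 624 CPM in MTP10-HDL MPP libraries 1, 2 and 3, against 334 and 523 CPM in PBS libraries 2 and 3. MTP10-HDL 2 was the highest, and MTP10-HDL 1 was close to PBS 3. Its log2 fold change was 0.95 ± 0.43 (SE), with an edgeR adjusted p of 0.811. Rpl13a, known in human cells for a role outside the ribosome in silencing inflammatory transcripts, had 110.2, 224 and 111 CPM with MTP10-HDL, against 72.4 and 94.5 CPM with PBS, and 0.83 ± 0.36 on the log2 scale. Rps2, near the decoding centre, had 1083, 2042 and 1089.8 CPM with MTP10-HDL, against 701 and 1007 CPM with PBS, and 0.72 ± 0.36 in log2 fold change. Rpl15, of the large subunit core, had 276, 433 and 289 CPM with MTP10-HDL, against 189 and 259.5 CPM with PBS, and 0.57 ± 0.28 in log2 fold change. In HSCs these 4 genes had log2 fold changes of 0.13 ± 0.23 for Rpl41, 0.13 ± 0.22 for Rpl13a, 0.17 ± 0.25 for Rps2 and -0.07 ± 0.41 for Rpl15.

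For the stalk genes in MPPs MTP10-HDL 2 was again the highest library. Rplp1 had 1804, 3645 and 1707 CPM with MTP10-HDL, against 1409.5 and 2272 CPM with PBS, and 0.37 ± 0.41 on the log2 scale. Rplp2 had 1053, 2742 and 554 CPM with MTP10-HDL, against 765 and 1344 CPM with PBS, with MTP10-HDL 3 below both PBS libraries, and Rplp0 had 1542, 2145 and 1779 CPM with MTP10-HDL, against 1314 and 1963 CPM with PBS. In the 5S particle, Rpl5 had 840.2, 1428 and 862 CPM with MTP10-HDL, against 652 and 998 CPM with PBS, and Rpl11 had 1022, 2309.5 and 921 CPM with MTP10-HDL, against 728 and 1247 CPM with PBS. PBS 3 was above MTP10-HDL 1 and 3 for both. The log2 fold change was 0.34 ± 0.33 for Rpl5 and 0.52 ± 0.45 for Rpl11.

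The small subunit genes with the higher MPP fold changes included Rpsa, Rps6 and Rps12. Rpsa had 2566, 5693 and 2651 CPM with MTP10-HDL, against 1795 and 2821 CPM with PBS, and 0.66 ± 0.43 on the log2 scale. Rps6 had 1196, 2389 and 1314 CPM with MTP10-HDL, against 866 and 1298 CPM with PBS, and 0.59 ± 0.37 in log2 fold change. Rps12 had 1931, 4391 and 1796 CPM with MTP10-HDL, against 1261 and 2171 CPM with PBS, and 0.66 ± 0.46 in log2 fold change. In each of these MTP10-HDL 2 stood above every other library, and MTP10-HDL 1 and 3 lay between or near the PBS values. Rps27a, made as a fusion with ubiquitin, had 867, 2045 and 637 CPM with MTP10-HDL, against 588 and 902 CPM with PBS, and 0.67 ± 0.50 in log2 fold change. Rps25, needed for viral internal ribosome entry, was the core gene with the lowest MPP log2 fold change, -0.31 ± 0.30, at 432, 612 and 486 CPM with MTP10-HDL, against 459 and 805 CPM with PBS. For Rps25 PBS 3 was the highest library.

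**Figure D4:**
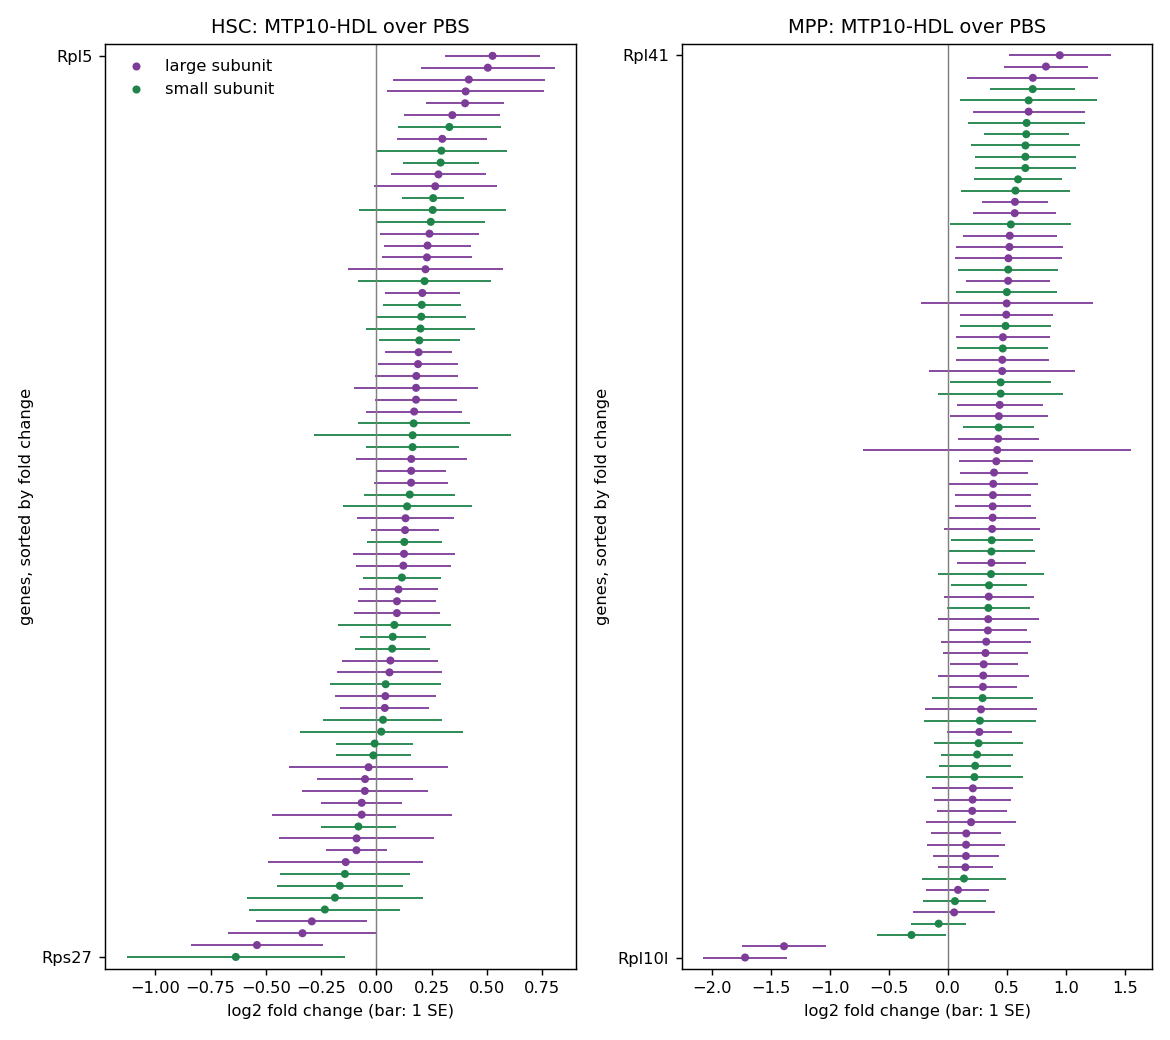
Log2 fold change of MTP10-HDL over PBS with 1 SE for each tested ribosomal protein gene, in HSC (left) and MPP (right), purple for the large subunit and green for the small subunit, sorted by value, with the gene at each end named. HSC values run from -0.64 (Rps27) to 0.53 (Rpl5) and MPP values from -1.72 (Rpl10l) to 0.95 (Rpl41).

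The 2 lowest MPP values were those of paralogs. Rpl10l (chr12:66283379-66284401), a retrogene copy of Rpl10 used in mouse spermatogenesis, had 5.96, 6.60 and 6.00 CPM in MTP10-HDL MPP libraries 1, 2 and 3, against 13.3 and 27.5 CPM in PBS libraries 2 and 3, and a log2 fold change of -1.72 ± 0.36 (edgeR adjusted p = 0.320). All MTP10-HDL libraries lay below both PBS libraries, as they did for 12.3% of all genes. Its parent Rpl10 had 533, 662 and 506 CPM with MTP10-HDL, against 455 and 569 CPM with PBS, and 0.15 ± 0.23 on the log2 scale. Rpl3l (chr17:24727826-24736143), the muscle paralog of Rpl3, had 37.4, 38.8 and 58.5 CPM in MTP10-HDL MPP libraries 1, 2 and 3, against 73.7 and 162 CPM in PBS libraries 2 and 3, and a log2 fold change of -1.39 ± 0.36 (edgeR adjusted p = 0.491). Rpl3 had 1342, 2345 and 1563 CPM with MTP10-HDL, against 984 and 1621 CPM with PBS, and 0.43 ± 0.34 in log2 fold change. Under the settings tried, the log2 fold change of Rpl10l ran between -2.16 and -1.11 and that of Rpl3l between -1.86 and -0.71.

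Rows named as ribosomal protein pseudogenes, which are outside the rule, differed among themselves in MPPs. Of the 311 such rows 73 were tested, 57 had a fold change above 0 and 16 below, with a median log2 fold change of 0.60, and 0 were called. In 15 of them all MTP10-HDL libraries lay above both PBS libraries, where 12% of all genes did, and in 6 all lay below, where 12.3% did. The mean of 65 of the 73 rows was under 10 CPM. The most abundant row, Rps15-ps3, had 177, 134 and 183 CPM with MTP10-HDL, against 422 and 955 CPM with PBS, and a log2 fold change of -2.07 ± 0.35 (edgeR adjusted p = 0.226), where Rps15 had 0.26 ± 0.37. Rps24-ps3 had -0.01 ± 0.68, Rpl14-ps1 0.60 ± 0.33 and Rpl10a-ps1 0.96 ± 0.47 in log2 fold change.

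Summed over all pseudogene rows, there were 0.643, 0.464 and 0.774 pseudogene counts per 100 ribosomal protein counts in MTP10-HDL MPP libraries, against 1.29 and 1.73 in PBS libraries. Rps15-ps3 alone held 43.2%, 23.4% and 37.7% of the pseudogene counts with MTP10-HDL, against 67.8% and 71.8% with PBS. Without Rps15-ps3 the sums were 0.365, 0.356 and 0.482 with MTP10-HDL, against 0.416 and 0.487 with PBS, and the groups overlap. In HSCs, with all rows, the ratio was 1.98 to 2.76 with MTP10-HDL and 2.16 to 3.75 with PBS. How the authors' counting split reads between parents and copies is not given in the sources used here, so all of these rows are uncertain.

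**Figure D5:**
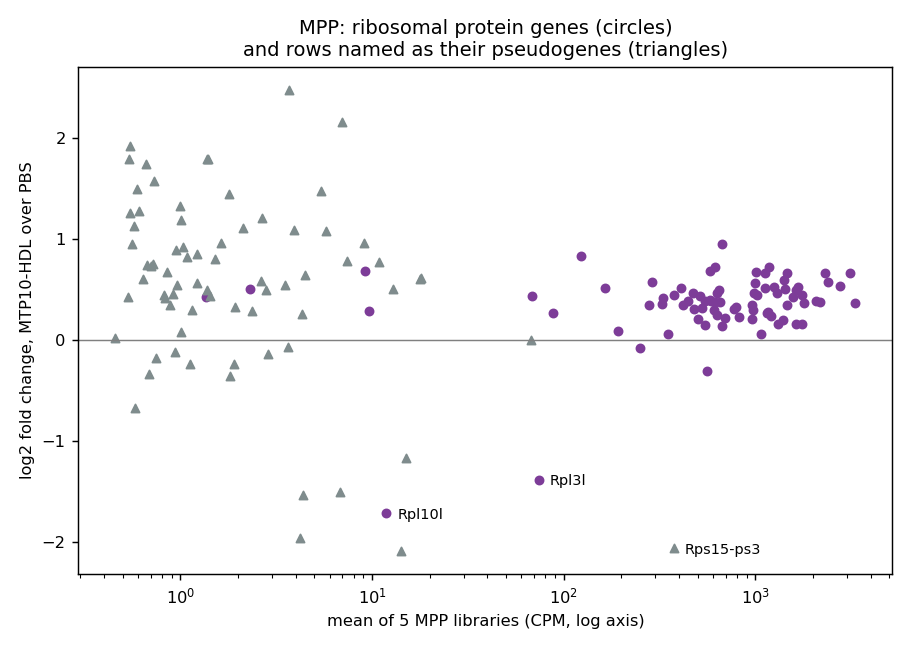
MPP log2 fold change of MTP10-HDL over PBS against mean CPM (log axis) for each tested ribosomal protein gene (circles) and each tested row named as a ribosomal protein pseudogene (triangles). Rpl10l, Rpl3l and Rps15-ps3 lie low, at -1.72, -1.39 and -2.07, while 57 of the 73 pseudogene rows lie above 0.

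Markers of other cells differed in value in MPPs too. Of 13 tested erythroblast markers, 11 were lower, with a summed level of 148 to 179 CPM with MTP10-HDL and 192 to 208 CPM with PBS. Of 11 tested monocyte and macrophage markers 7 were lower and 4 higher, with summed levels of 216 to 290.3 CPM against 375 to 396 CPM. Ly6c2 held the largest part of these sums, at 130, 147 and 141 CPM in MTP10-HDL libraries 1, 2 and 3, against 264 and 273 CPM with PBS. The higher markers included Csf1r at 0.50 ± 0.34 and Cx3cr1 at 0.68 ± 0.40 in log2 fold change. Of 14 neutrophil markers 9 were higher and 5 lower. Their summed levels were 263 to 1820 CPM with MTP10-HDL, with a median of 303 CPM, against 656 to 840 CPM with PBS. MTP10-HDL 3 was the highest library for them. Of 8 tested T and NK cell markers 6 were higher and 2 lower, with summed levels of 192 to 229 CPM against 123 to 133 CPM. Among them Il7r had 78.8, 73.2 and 97.6 CPM in MTP10-HDL libraries 1, 2 and 3, against 31.2 and 32.7 CPM with PBS. Of 14 B cell markers 5 were higher and 9 lower, with the lowest log2 fold change, -4.1 ± 0.68, for Ms4a1. No listed erythroblast, neutrophil, monocyte, B cell, T cell or NK cell marker was at 0 in all MPP libraries, and none was called. Their part in the ribosomal protein values was not tested. Immunoglobulin genes took 2.76% to 4.26% of counts with MTP10-HDL and 6.20% to 12.5% with PBS.

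The MPP and HSC responses were set against each other in 1 fit over both tables. None of 81 genes differed at an adjusted p of 0.05 in edgeR, where 0% of 24470 genes were called higher and 0.00409% lower. The median difference, MPP minus HSC on the log2 scale, was 0.30 over the 81 genes and 0.09 over all genes, with 71 above 0, where 55.8% of all genes were. The lowest unadjusted p was 0.0872, for Rpl27, whose difference was 0.88 ± 0.50 (SE). The 2 cell types come from different kits, but each fold change is taken within its own table. No gene was at an unadjusted p below 0.05, where 1.19% of all genes were higher and 2.67% lower. Without the low-count filter 0 were called, where 0% of genes were called higher and 0.00833% lower.

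Genes that work with the ribosome held no called member either. Of 13 subunits of eIF3, which brings the small subunit to messenger RNA, 10 were above 0 in HSCs with a median of 0.15, and 13 in MPPs with a median of 0.31. Eif3l had the lowest p of them in HSCs, 0.00386 before and 0.365 after edgeR's adjustment, at 113, 148 and 163 CPM with MTP10-HDL, against 67.1, 108 and 123 CPM with PBS. Its log2 fold change was 0.48 ± 0.14. Of 6 elongation factors, 4 were above 0 in HSCs, where Eef1a1, which delivers aminoacyl-tRNA, had 0.43 ± 0.19 and Eef2, the translocase, 0.39 ± 0.20 in log2 fold change. All 6 were above 0 in MPPs, with Eef1b2 at 0.66 ± 0.45 and Eef1a1 at 0.02 ± 0.28 in log2 fold change.

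Of 24 other tested transcripts with a TOP tract, some of them elongation factors and eIF3 subunits, 13 were above 0 in HSCs, with a median of 0.05, and 22 in MPPs, with a median of 0.32. Tpt1, a translationally controlled tumour protein gene, had -0.67 ± 0.31 in HSCs and -0.04 ± 0.29 in MPPs in log2 fold change. Npm1, a nucleolar chaperone, had 2148, 3179 and 2398 CPM in MTP10-HDL MPP libraries 1, 2 and 3, against 1234 and 1638 CPM in PBS libraries 2 and 3, so that all MTP10-HDL libraries were above both PBS libraries. Its log2 fold change was 0.84 ± 0.29 in MPPs and 0.03 ± 0.17 in HSCs. Of the 5 tested ribosomal proteins that the name rule leaves out, Fau, fused with a ubiquitin-like domain, had -0.18 ± 0.39 in HSCs and 0.46 ± 0.46 in MPPs in log2 fold change. Rack1, a scaffold on the small subunit, had 0.14 ± 0.18 and 0.45 ± 0.31 in log2 fold change.

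None of the listed regulators of ribosomal protein genes and of TOP translation passed the test. Of 13 genes of the mTORC1 and TOP control list, 6 were above 0 in HSCs with a median of -0.08, and 8 in MPPs with a median of 0.11. Their log2 fold changes ran between -0.27 and 0.27 in HSCs and between -0.16 and 0.39 in MPPs, where Eif4e, the cap-binding factor, was the highest. Larp1 had 0.08 ± 0.15 in HSCs and 0.11 ± 0.25 in MPPs in log2 fold change. Of 11 promoter factors 8 and 6 were above 0 in HSCs and MPPs, with log2 fold changes of -0.12 to 0.31 in HSCs and -0.41 to 0.47 in MPPs. In MPPs Mycn was the lowest at -0.41 ± 0.21 and Tbpl1 the highest at 0.47 ± 0.20. Gabpa had 0.14 ± 0.13 and 0.11 ± 0.26, and Yy1 0.31 ± 0.13 and -0.03 ± 0.18 in log2 fold change. Of 10 tested genes for transport of ribosomal proteins, 5 were above 0 in HSCs with a median of -0.06, and 9 in MPPs with a median of 0.25. None of these lists held a called gene in either cell type, as 0% of all genes were called.

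The 20 genes known from human Diamond-Blackfan anaemia held no called gene. In HSCs 14 of 20 were above 0 with a median of 0.09, where 58 of all 77 tested ribosomal protein genes were, with a median of 0.14. In MPPs 20 of 20 were above 0 with a median of 0.44, where 77 of all 81 were, with a median of 0.38. Rps26 had 75.3, 84.9 and 113 CPM with MTP10-HDL, against 53.4, 83.3 and 109 CPM with PBS, in HSCs, and a log2 fold change of 0.13 ± 0.17. In MPPs it had 948, 1858 and 1155 CPM with MTP10-HDL, against 638 and 1029 CPM with PBS, and 0.66 ± 0.36 in log2 fold change. Rpl22, which is lost in some human leukaemias and is known in mice to act in lymphocyte development, had 0.09 ± 0.17 in HSCs and 0.46 ± 0.39 in MPPs in log2 fold change. Rpl36al, an intronless relative of Rpl36a, had -0.03 ± 0.36 and 0.28 ± 0.48 in log2 fold change.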

How the data were processed

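The authors deposited raw read counts per Ensembl gene, 1 table for 13 HSC libraries and 1 for 5 MPP libraries, each with 55471 rows. Per the labels' protocols, HSC RNA was amplified to complementary DNA before library construction, whereas MPP RNA was poly-A selected with insect carrier RNA and made into directional libraries. Per the submitters' processing notes, CASAVA 1.8.2 and STAR 2.5.2b were used for HSC, and STAR 2.7.2a with DESeq2 1.24 in R 3.6.1 for MPP, on mm10. What tool counted the reads, on which annotation and strand, and how multiply matching reads were treated, is not given in the sources used here. The labels number the HSC PBS samples 1 to 6 and 8 while the table holds PBS 1 to 7, so the table's numbers are used and PBS columns enter as a group. All columns were mapped. The 12 ATAC-seq samples were not analysed here.

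Each table was fitted in R 4.3.3 with edgeR 4.0.16 (TMM scaling, filterByExpr with default settings, quasi-likelihood F test, Benjamini-Hochberg adjustment over all genes tested, threshold 0.05), after the code was tested on simulated data. A joint fit of both tables tested the difference of the responses. CPM values are counts scaled to an equal library total with TMM factors, library means used log2 CPM with a prior count of 2, and gene positions came from RefSeq for GRCm38.p6. Alternatives were DESeq2 1.42.0, limma 3.58.1 (voom), other scalings and filters, each library left out, a replicate block and 3 sets of HSC libraries by detected genes and ribosomal RNA. Since no gene passed, the naming rule took per table the up to 6 smallest p-values of each direction among ribosomal protein genes tested, whatever their level, the 6 smallest in the test of the difference, and a fixed set of stalk, 5S, S6 and paralog genes, 35 in all, of which 2 are not reported here. Other genes named, such as Rps3, Rps21, Rpl35, Rpl30 and the partners outside the rule, illustrate a list or a count and were chosen after their values were seen. The members and lists were chosen with earlier results of these data known. No label says whether pools were processed on separate days, so p-values measure the spread between pools.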

Additional observations from a re-analysis of the deposited data

Results flagged for a closer look

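In 72 groups of 4 to 7 libraries checked for a library standing far from the rest, 3 were found, where chance gives about 1 in 20. The check needs at least 4 libraries in a group, so the MPP groups of 3 and 2 libraries could not be checked. In HSC MTP10-HDL 2 Rpl15 was at 86.2 CPM, above the other 5 MTP10-HDL libraries, which ran between 16.5 and 31.8 CPM, and PBS libraries ran between 18.3 and 76.3 CPM. In HSC MTP10-HDL 1 Rpl3 was at 66.8 CPM, below the other MTP10-HDL libraries at 90.5 to 104 CPM, with PBS at 62.4 to 119 CPM. In HSC MTP10-HDL 4 Rpl7a was at 57.5 CPM, above the others at 22.8 to 34.8 CPM, with PBS at 14.8 to 45.1 CPM.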

How the results depend on the processing

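With each alternative scaling, filter and model and each library left out, 0 ribosomal protein genes were called in HSCs. In the test of the difference between cell types 0 were called with each scaling and filter and with each MPP library left out, while other models and leaving out HSC libraries were not run. In MPPs 0 were called except for 2, Rpl10l and Rpl3l, without the low-count filter (345 genes called in all) and by DESeq2 (181 genes). The HSC median log2 fold change of 0.14 became 0.54 among the HSC libraries with neither few genes nor much ribosomal RNA, a set added after seeing the data, and the cause was not tested. Leaving out 1 library at a time, the HSC median ran between 0.07 and 0.24 and the MPP median between 0.02 and 0.75. Over the same fits the difference in the share of counts, MTP10-HDL minus PBS, ran between 0.119 and 0.251 percentage points in HSCs and between 0.263 and 3.33 in MPPs. Of the named genes' values under alternatives, all 860 in HSCs, 471 of 475 in MPPs and all 338 for the difference stayed on the same side of the threshold. Since no named gene was called in the main fits, this says little of how stable the values are. The sign differed from the main fit in 64 of these values in HSCs, 16 in MPPs and 30 for the difference. Same-numbered HSC libraries had correlations of -0.15 to 0.24 and MPP libraries -0.12, after each group's mean was taken off. With 2 MPP libraries in each group the deviations mirror each other, so both MPP numbers give the same value. These correlations cannot decide whether the numbers pair the samples. With the replicate block 0 genes were called in HSCs (median of ribosomal protein genes 0.13), and 43 in MPPs, 0 of them ribosomal protein genes (median 0.49, against 0.54 for the same libraries without the block). PBS depth in HSCs, down to 4064155 counts, limits the rarer genes, such as Rps27, most.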
